A study of Homo sapiens with 6 samples.

Results

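Cadherins are calcium-dependent adhesion proteins. The members described here are the genes of the count table named CDH or PCDH plus a number, together with the CELSR, FAT and Dachsous genes CELSR1 to CELSR3, FAT1 to FAT4 and DCHS1, and 42 of the 19868 entries met that rule, which uses gene names and no measured value. RNA was sequenced from NGP, a human neuroblastoma cell line, in 3 libraries of control cells (Control, described in the labels as sh-control) and 3 of cells with knockdown of CAMKV (CAMKV-KD, described as sh-CAMKV). CAMKV is a kinase-like protein of the calmodulin-dependent kinase family that is held to lack catalytic activity. Cells of both groups were grown under 1 protocol in RPMI-1640 with serum. The number of hairpin sequences or clones is not stated in the labels, nor is the origin of the replicates (separate cultures or not), so p-values reflect the spread between libraries alone and that spread may be technical.

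Classical cadherins span the membrane, bind cadherins on the next cell through their outermost repeat, and link through beta-catenin, alpha-catenin and p120-catenin to actin. Type I members share strong homophilic binding and type II members bind in partly overlapping groups, so that the set a neuron carries influences which cells it sorts with. Non-clustered protocadherins of the delta-1 and delta-2 groups bind more weakly, lack the catenin-binding tail, and act in neuron migration and axon growth. Several of the delta-2 group act through the WAVE complex, which promotes actin nucleation. FAT and Dachsous proteins are giant cadherins that bind each other across cells and act in tissue polarity and growth control, and CELSR proteins are seven-pass receptors of planar cell polarity. In the neural crest, the source of neuroblastoma, changes in the cadherins on the surface accompany the start and end of migration.

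Total counts per library ran from 20238281 to 24701564, and 3 counts in a library correspond to 0.121 to 0.145 CPM (counts relative to library size after TMM scaling, the trimmed mean of M values). CAMKV itself was at 83.9, 77.3 and 84.6 CPM in Control and 25.4, 23.2 and 25.4 CPM in CAMKV-KD, lower in each CAMKV-KD library as the labels state (log2 fold change −1.73 ± 0.065 SE, adjusted p = 0.000119 in edgeR's quasi-likelihood test). Neuroblastoma markers were abundant, with 10 of 10 tested and a summed level of 1543 to 1829 CPM in Control and 1211 to 1531 CPM in CAMKV-KD. Of these, 4 fell and 1 rose (TH, tyrosine hydroxylase, by 2.62 on the log2 scale). The median log2 fold change of the 10 was −0.36, against the direction of TH. Over all tested genes 36.3% were called (adjusted p below 0.05 in edgeR), 17.3% higher and 19.0% lower. Of 9 Schwann and glial markers 4 were tested and 1 rose: PMP22, a myelin protein also made by other cells, was at 49.9 ± 2.55 CPM in Control and 58.1 ± 0.678 CPM in CAMKV-KD (SD, n = 3; log2 0.22, adjusted p = 0.0253, edgeR). The PMP22 call stood only in the fit without Control 2 among those that left out a library (highest adjusted p 0.0765). The summed level of this list was 51.8 to 57.9 CPM in Control and 60.3 to 61.9 CPM in CAMKV-KD, and SOX10, which defines the lineage, had no count. The 8 blood markers summed to 0.950 to 1.97 CPM in Control and 0.490 to 1.50 CPM in CAMKV-KD. Of the 42 members, 5 (CDH9, CDH10, CDH16, CDH17 and CDH26) had no count in any library and a further 5 (CDH1, CDH3, CDH13, CDH19 and PCDH19) had too few counts to be tested, which left 32 tested.

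The windows before the annotated starts of 4 members are shown because these genes, on chromosomes 4, 5 and 18, differed between the groups and moved both ways. Each runs 5′ to 3′ over the 250 bases before a RefSeq start on GRCh38.p14, and none overlaps an exon of its gene in GENCODE 29. The window of CDH12, the member with the largest rise, lies before the second listed start, at chr5:22212770-22213019 on the minus strand. This start is inside the gene (chr5:21750673-22853622), and the window before the first start, which lies wholly in an exon, is not shown. The window of PCDH18, which rose, is at chr4:137532495-137532744 on the minus strand. The window of PCDH1, which fell, is at chr5:141869628-141869877 on the minus strand, also inside its gene (chr5:141853111-141879246 in GENCODE 29). The window of CDH7, which fell, lies before the first listed start, at chr18:65750002-65750251 on the plus strand. Capitals mark matches to the E-box letters CAGGTG or CACCTG, which repressors of the SNAIL and ZEB families bind, and to TGACG or CGTCA, the half-site of CREB, a factor that other calmodulin-dependent kinases phosphorylate.
CDH12: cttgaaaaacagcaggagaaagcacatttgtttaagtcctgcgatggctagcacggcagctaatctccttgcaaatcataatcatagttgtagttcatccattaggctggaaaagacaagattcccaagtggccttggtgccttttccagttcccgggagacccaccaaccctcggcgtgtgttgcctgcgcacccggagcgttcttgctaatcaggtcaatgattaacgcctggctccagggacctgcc
PCDH18: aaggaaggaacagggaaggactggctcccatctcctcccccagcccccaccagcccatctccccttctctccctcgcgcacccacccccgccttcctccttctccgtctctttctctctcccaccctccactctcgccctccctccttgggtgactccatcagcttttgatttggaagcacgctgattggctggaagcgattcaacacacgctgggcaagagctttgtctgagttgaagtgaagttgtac
PCDH1: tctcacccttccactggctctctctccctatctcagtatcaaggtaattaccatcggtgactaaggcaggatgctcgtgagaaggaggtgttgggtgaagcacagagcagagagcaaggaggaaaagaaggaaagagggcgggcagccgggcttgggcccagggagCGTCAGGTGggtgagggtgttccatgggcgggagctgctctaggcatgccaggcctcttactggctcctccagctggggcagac
CDH7: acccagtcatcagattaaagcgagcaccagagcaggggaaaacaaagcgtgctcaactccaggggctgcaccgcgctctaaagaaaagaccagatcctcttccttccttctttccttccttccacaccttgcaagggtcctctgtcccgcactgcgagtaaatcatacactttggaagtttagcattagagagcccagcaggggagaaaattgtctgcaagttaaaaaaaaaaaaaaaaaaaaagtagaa

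Only the PCDH1 window of these 4 held a match. Its E-box ran from 81 to 76 bases before the start and overlapped a CREB half-site from 84 to 80 bases before it. RefSeq windows matched 25 of the 42 members by symbol, 38 windows in all since several genes have more than 1 start. The E-box letters, read on both strands, stood in 4 of these 38 windows (10.5%) against 17.5% of all 35116 windows of that length. The half-site letters stood in 10 of 38 (26.3%) against 21.2% of all windows. A match is only a run of letters, and the files do not show which start NGP cells use.

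Among the 32 tested members, 5 were higher and 11 were lower in CAMKV-KD at an adjusted p below 0.05 (edgeR's quasi-likelihood test, Benjamini-Hochberg over 13366 genes). Of all tested genes 36.3% were called, 17.3% higher and 19.0% lower. Against that background, 50.0% of tested members were called, 15.6% higher and 34.4% lower, with a median log2 fold change of −0.21 beside 0.0045 over all tested genes. Control and CAMKV-KD values were fully apart for 21 tested members, where 52.8% of all tested genes were apart in this way. The 10 members outside the test had at most 42 counts over all 6 libraries. Of the 16 calls, 12 stood in all 6 fits that left out a library.

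**Figure D1:**
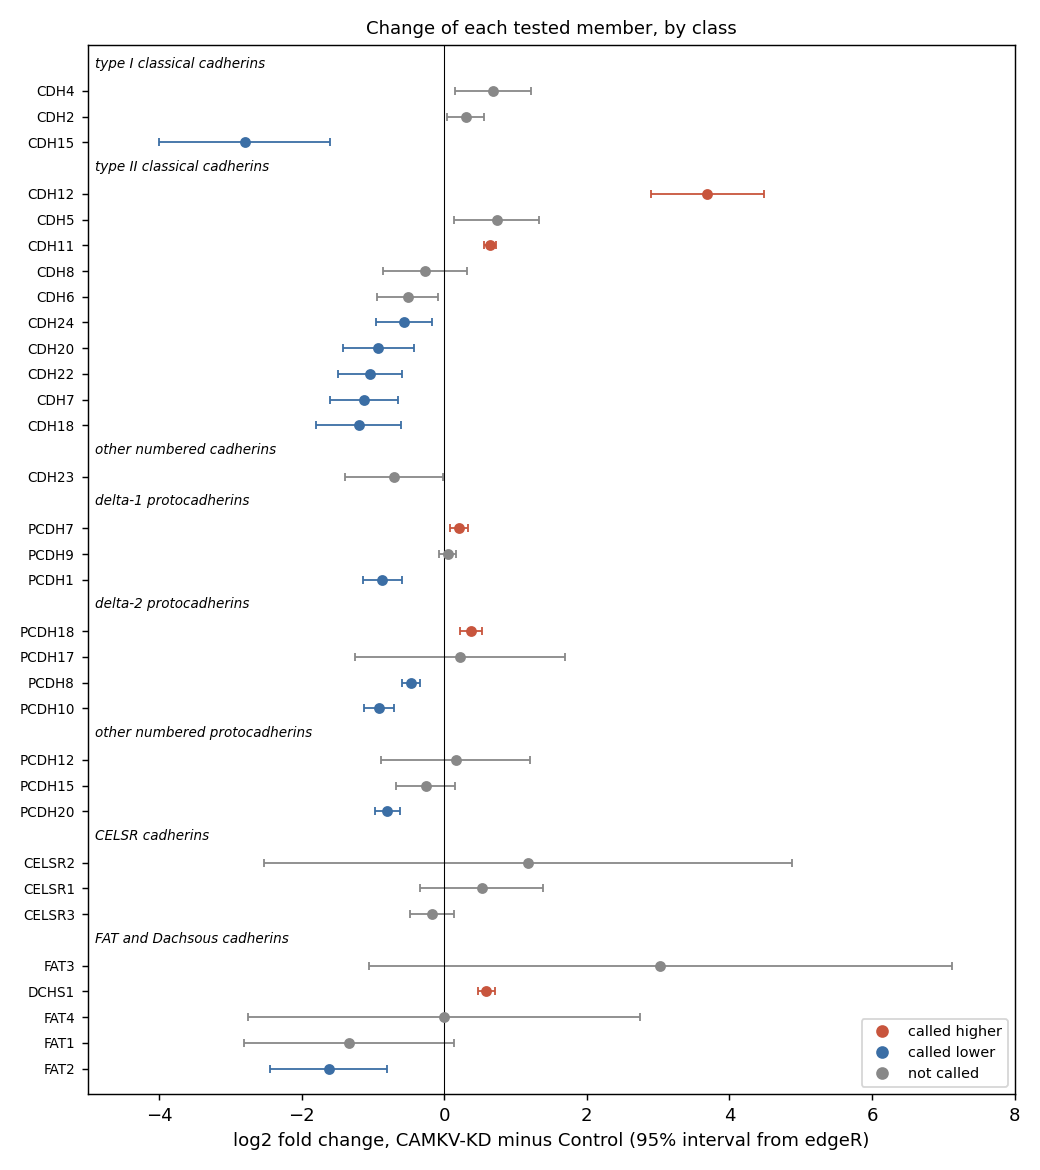
Log2 fold change (CAMKV-KD minus Control) of the 32 tested members by class, with the 95% interval from edgeR as bars. CDH12 lies farthest to the right at 3.69 and CDH15 farthest to the left at −2.80, and the intervals of FAT3, CELSR2 and FAT4 are the widest.

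Type I cadherins were few, and the one that changed was a cadherin of muscle. CDH15 (M-cadherin), at chr16:89171767-89195492 on the plus strand (GRCh38, GENCODE 29), was at 2.40, 2.16 and 2.78 CPM in Control and 0.162, 0.630 and 0.267 CPM in CAMKV-KD. All CAMKV-KD libraries lay below all Control libraries, on counts of 58, 47 and 62 against 4, 13 and 6. The log2 fold change was −2.80 ± 0.48 (SE, adjusted p = 0.00804, edgeR), a Control mean 6.93 times the CAMKV-KD mean. CDH2 (N-cadherin), the main type I cadherin of neural tissue, was at 16.7, 14.5 and 17.8 CPM in Control and 18.9, 20.6 and 20.9 CPM in CAMKV-KD. The groups were apart but the difference did not pass (log2 0.30 ± 0.10 SE, 95% interval 0.045 to 0.56, adjusted p = 0.0711, edgeR). Scaling by library totals and DESeq2 called it, at 0.36 (adjusted p = 0.0444) and 0.30 (adjusted p = 0.0356). CDH4 (R-cadherin, first described in retina) was at 1.80 ± 0.236 CPM in Control and 2.89 ± 0.642 CPM in CAMKV-KD (SD, n = 3). Its log2 value of 0.68 ± 0.21 (SE) did not pass (adjusted p = 0.0565, edgeR), and was called by scaling with library totals (0.74, adjusted p = 0.0439) and DESeq2 (0.68, adjusted p = 0.0415).

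The epithelial cadherins of this class were nearly absent. CDH1 (E-cadherin) had 8 counts in all, 2 in Control 2 and 6 in CAMKV-KD 3. CDH3 (P-cadherin), its neighbour on chromosome 16, had 13, 19 and 6 counts in Control and 0, 2 and 2 in CAMKV-KD. It was removed by the low-count filter. Without that filter its log2 fold change was −3.11 (adjusted p = 0.0541, edgeR), and DESeq2 gave an adjusted p of 0.00885. Epithelial markers were low too: their summed level over 12 genes was 5.34 to 6.52 CPM in Control and 6.67 to 10.8 CPM in CAMKV-KD, and KRT5, KRT14 and KRT18 had no count. Of the 5 epithelial markers tested 1 was called, MUC1, a membrane mucin, at 0.84, and its call was lost in every fit that left out a library (adjusted p up to 0.0792).

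Of 10 tested type II cadherins 2 rose and 5 fell, so that 70.0% were called, beside 75.0% of the 4 tested delta-2 protocadherins and 36.3% of all tested genes. CDH12, a cadherin of brain, was at 1.53, 0.688 and 1.08 CPM in Control and 13.2, 13.7 and 15.9 CPM in CAMKV-KD. The counts behind these values were 37, 15 and 24 against 326, 282 and 357, and every CAMKV-KD library stood far above every Control library. The CAMKV-KD mean was 13 times the Control mean (log2 3.69 ± 0.31 SE, adjusted p = 0.000855, edgeR). CDH11 (OB-cadherin), found on mesenchymal and migrating neural crest cells, lies at chr16:64943753-65126112 on the minus strand. It was at 98.7, 102.2 and 101.4 CPM in Control and 160.6, 157.8 and 154.4 CPM in CAMKV-KD. Its libraries were tightly grouped and apart, with a CAMKV-KD mean 1.56 times the Control mean (log2 0.65 ± 0.034 SE, adjusted p = 0.000238, edgeR). Fibroblast and stromal markers moved both ways: of 8 tested, 4 rose and 1 fell, where 36.3% of all tested genes were called. Their median log2 fold change was only 0.095, with groups apart for 4 upward and 2 downward. Their summed level over 10 genes was 709.7 to 890.7 CPM in Control and 929.1 to 993.1 CPM in CAMKV-KD. FAP and POSTN had no count, and the part of these markers in the CDH11 difference was not tested. In bulk RNA, more cells of a type and more RNA per cell cannot be told apart.

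The type II members that fell were mostly at low levels. CDH18, a cadherin of brain, was at 4.30, 4.63 and 4.26 CPM in Control and 2.59, 1.50 and 1.65 CPM in CAMKV-KD. The groups were apart, with a log2 fold change of −1.20 ± 0.24 (SE, adjusted p = 0.0137, edgeR), and without CAMKV-KD 3 it was −1.10 with an adjusted p of 0.0501. CDH7, which in chick marks migrating neural crest cells, was at 7.68, 8.12 and 7.27 CPM in Control and 3.64, 2.71 and 4.23 CPM in CAMKV-KD. Each CAMKV-KD library was below each Control library (log2 −1.12 ± 0.19 SE, adjusted p = 0.00759, edgeR). CDH22, a cadherin of pituitary and brain, was at 1.98, 1.74 and 1.79 CPM in Control and 1.05, 0.775 and 0.847 CPM in CAMKV-KD. It also had groups that were apart (log2 −1.04 ± 0.18 SE, adjusted p = 0.00813, edgeR).

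CDH20, a close relative of CDH7, was at 1.16, 1.19 and 1.17 CPM in Control and 0.687, 0.484 and 0.669 CPM in CAMKV-KD. All CAMKV-KD values were lower, on at most 28 counts a library (log2 −0.92 ± 0.20 SE, adjusted p = 0.0177, edgeR). Its call was lost without Control 1, Control 2 or Control 3 (adjusted p up to 0.0596) and with the replicate block (adjusted p = 0.075). CDH24 was at 26.2, 29.4 and 28.1 CPM in Control and 16.3, 23.3 and 17.0 CPM in CAMKV-KD. The groups were apart, and CAMKV-KD 2 lay nearest to Control (log2 −0.56 ± 0.16 SE, adjusted p = 0.0418, edgeR). The CDH24 call was the least stable of the 16: it was lost on leaving out any library but CAMKV-KD 2 (highest adjusted p 0.113), and under library totals (−0.50, adjusted p = 0.0566).

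Among the type II members that did not pass, CDH6 (K-cadherin), which in mouse marks the premigratory neural crest, was at 10.9, 7.43 and 9.15 CPM in Control and 6.50, 6.88 and 5.93 CPM in CAMKV-KD. The groups were apart with log2 −0.51 ± 0.17 (SE, adjusted p = 0.0678, edgeR). It was called without Control 2 (−0.64, adjusted p = 0.0335) and by DESeq2 (−0.52, adjusted p = 0.0304). No other fit without a library called it (highest adjusted p 0.171, edgeR). CDH8 was at 1.42 ± 0.345 CPM in Control and 1.17 ± 0.112 CPM in CAMKV-KD (SD, n = 3), with overlapping groups. CDH5 (VE-cadherin), which defines endothelial junctions, was at 0.396 ± 0.0458 CPM in Control and 0.663 ± 0.111 CPM in CAMKV-KD (SD, n = 3), on 8 to 18 counts a library. Its log2 value of 0.74 ± 0.24 (SE) did not pass (adjusted p = 0.0746, edgeR).

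Beside CDH5, 3 of the 5 tested endothelial markers were higher and 1 was lower, where 36.3% of all tested genes were called. KDR (VEGFR2) rose by 2.07 on the log2 scale, TEK, the angiopoietin receptor, by 1.88 and CLDN5, a tight junction claudin, by 1.22, while EGFL7, a secreted vascular factor, fell by 0.63. The CLDN5 call was lost on leaving out Control 2 or 3 or CAMKV-KD 2 or 3, with a highest adjusted p of 0.0877. The summed level of the 10 endothelial markers was 26.6 to 30.2 CPM in Control and 33.8 to 38.1 CPM in CAMKV-KD, and the defining markers PECAM1, VWF and TIE1 were each at or below 0.0994 CPM in both groups. CDH19, a cadherin of Schwann cell precursors, had 4, 6 and 0 counts in Control and none in CAMKV-KD. CDH13 (T-cadherin, anchored by a lipid and without a tail) had 4, 0 and 1 counts in Control and none in CAMKV-KD. At these counts no difference was detectable for CDH19 or CDH13.

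Levels of different genes are set against each other here as CPM per kilobase, of merged exons unless the longest transcript is named. In Control the highest members were PCDH8 (12.2 ± 0.290), PCDH7 (9.65 ± 0.444), PCDH18 (9.09 ± 0.643), CDH11 (7.53 ± 0.138), CDH24 (7.44 ± 0.432) and DCHS1 (7.04 ± 0.270 CPM per kilobase, SD, n = 3). CDH11 and CDH24 were closer than either SD, and PCDH7 and PCDH18 were closer than the SD of PCDH18 but not that of PCDH7. In CAMKV-KD the order began with PCDH18 (11.8 ± 0.279), CDH11 (11.8 ± 0.232), PCDH7 (11.1 ± 0.343) and DCHS1 (10.6 ± 0.351), and PCDH8 followed with 8.85 ± 0.352 CPM per kilobase. These 6 genes held 61.1 to 65.4% of the summed level per kilobase of all members in Control and 67.6 to 69.9% in CAMKV-KD. The order depends on the length used, since by the longest transcript PCDH7 (17.5) and CDH11 (14.7) stood above PCDH8 (12.4 CPM per kilobase) in Control. By that length PCDH18 (10.3) was far below PCDH7, and CDH24 (7.85 CPM per kilobase) far below CDH11.

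**Figure D2:**
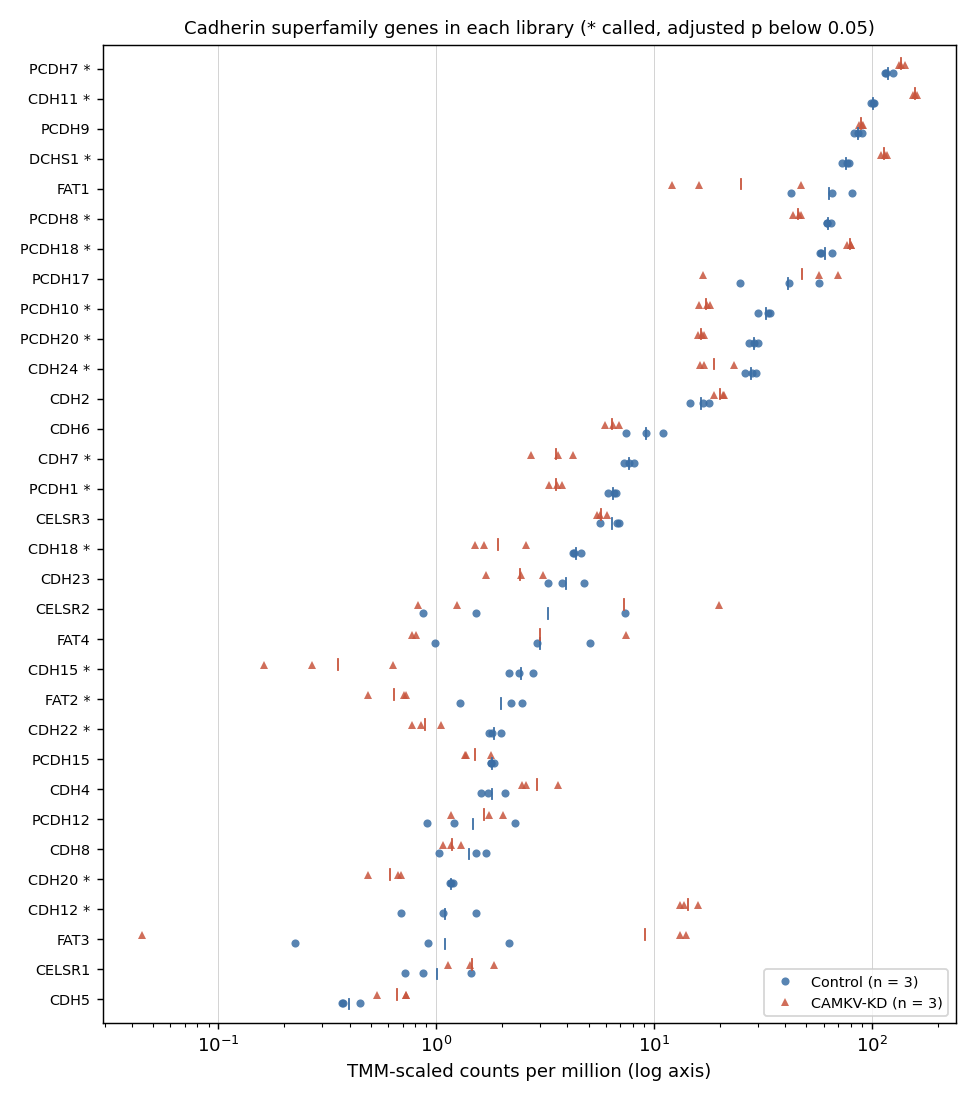
TMM-scaled CPM (log axis) of the 32 tested members in each library, with a short vertical line at each group mean. Members are ordered by Control mean CPM, which takes no account of gene length. CDH12 stands out by the gap between 1.10 CPM in Control and 14.2 CPM in CAMKV-KD, and FAT3, CELSR2 and FAT4 by libraries of 1 group that lie far apart.

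The make-up of the classical cadherins, described per library, differed between the groups. Of their summed CPM per kilobase of merged exons, CDH11 took 33.3 to 34.2% in Control and 44.2 to 48.6% in CAMKV-KD. CDH24 took 31.8 to 35.1% in Control, close to CDH11 by this length only, and 17.7 to 23.4% in CAMKV-KD. CDH12 went from 0.519 to 1.17% in Control up to 8.64 to 10.7% in CAMKV-KD. The share of CDH2 was 13.1 to 15.8% in Control and 15.5 to 16.8% in CAMKV-KD, and these ranges overlap. By the longest transcript the CDH11 share was 45.7 to 46.8% in Control and 56.8 to 60.7% in CAMKV-KD. The CDH24 share by that length was 23.5 to 26.1% in Control, far below CDH11, and 11.9 to 16.2% in CAMKV-KD. Shares of 1 sum are tied to each other and were not tested.

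**Figure D3:**
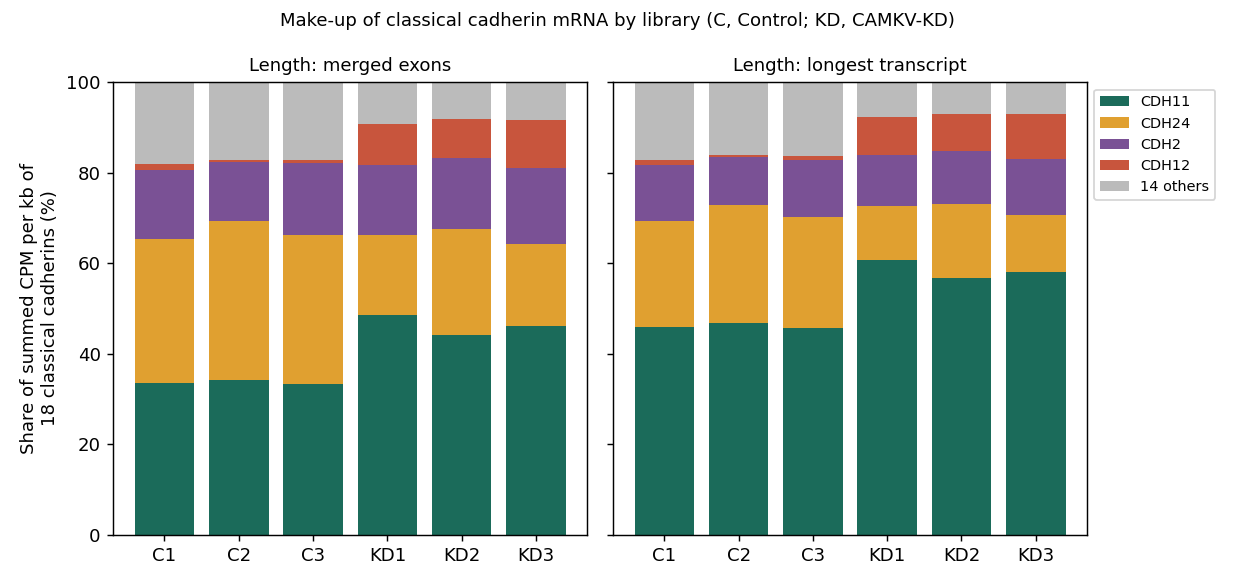
Share (%) of the summed CPM per kilobase of the 18 classical cadherins held by CDH11, CDH24, CDH2, CDH12 and the other 14 in each library, by merged exon length (left) and longest transcript length (right). In both panels the CDH11 and CDH12 segments are larger and the CDH24 segment smaller in all CAMKV-KD libraries than in all Control libraries.

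The delta-1 protocadherins differed from each other. PCDH1, also studied as an airway epithelial gene, was at 6.69, 6.56 and 6.15 CPM in Control and 3.76, 3.29 and 3.57 CPM in CAMKV-KD. The groups were well apart (log2 −0.87 ± 0.11 SE, adjusted p = 0.00283, edgeR). PCDH7, which in Xenopus acts in the neural fold and in axon growth, was at 114.7, 124.5 and 115.5 CPM in Control and 135.4, 133.1 and 141.2 CPM in CAMKV-KD. The groups were apart by a small margin (log2 0.21 ± 0.048 SE, adjusted p = 0.0227, edgeR). That call was lost on leaving out Control 1 or 3 or CAMKV-KD 1 or 3 (highest adjusted p 0.0696) and with the replicate block (adjusted p = 0.0829). PCDH9 was at 89.7, 86.6 and 82.6 CPM in Control and 86.9, 90.0 and 91.0 CPM in CAMKV-KD. These values overlapped, and the difference was small and tightly bounded (log2 0.049 ± 0.046 SE, 95% interval −0.066 to 0.16, adjusted p = 0.456, edgeR).

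Delta-2 protocadherins moved in opposite directions. PCDH10 (OL-protocadherin), which recruits the WAVE complex, was at 30.1, 34 and 33.3 CPM in Control and 18.1, 16.1 and 17.5 CPM in CAMKV-KD. All CAMKV-KD libraries were far below Control (log2 −0.92 ± 0.082 SE, adjusted p = 0.00102, edgeR). PCDH8, whose rat form arcadlin is induced by neuronal activity, was at 62.0, 62.1 and 64.6 CPM in Control and 46.2, 43.5 and 47.0 CPM in CAMKV-KD. The libraries of each group were close and the groups apart (log2 −0.46 ± 0.050 SE, adjusted p = 0.00174, edgeR). PCDH18 was at 58.5, 65.7 and 58.0 CPM in Control and 76.9, 79.7 and 80.4 CPM in CAMKV-KD. It was the 1 called member of its class that rose (log2 0.38 ± 0.062 SE, adjusted p = 0.00721, edgeR). PCDH17 was at 57.1, 41.8 and 24.9 CPM in Control and 16.8, 56.8 and 70.2 CPM in CAMKV-KD. Its groups overlapped widely, with CAMKV-KD 1 the lowest of all 6 libraries (log2 0.22 ± 0.59 SE, adjusted p = 0.81, edgeR). PCDH19, an X-linked epilepsy gene, had 4 counts in all, each in Control 2.

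Of the numbered protocadherins outside these groups, PCDH20 was at 27.2, 28.7 and 30.1 CPM in Control and 16.6, 15.9 and 17.0 CPM in CAMKV-KD. The groups were apart and closely grouped (log2 −0.80 ± 0.070 SE, adjusted p = 0.000928, edgeR). PCDH20 shares its merged locus with RP11-310K10.1, which had 5 counts in all 6 libraries together. PCDH15, a tip-link protein of inner ear hair cells, was at 1.80 ± 0.0334 CPM in Control and 1.50 ± 0.242 CPM in CAMKV-KD (SD, n = 3) and did not pass (adjusted p = 0.285, edgeR). CDH23, its partner in the tip link, was at 3.92 ± 0.763 CPM in Control and 2.42 ± 0.702 CPM in CAMKV-KD (SD, n = 3). CDH23 did not pass either, although every CAMKV-KD library was below every Control library (log2 −0.70 ± 0.27 SE, adjusted p = 0.104, edgeR). PCDH12, an endothelial protocadherin whose exons overlap RNF14 on the other strand, was at 1.47 ± 0.728 CPM in Control and 1.65 ± 0.438 CPM in CAMKV-KD (SD, n = 3).

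Of the giant cadherins DCHS1 (chr11:6621323-6655854, minus strand), the Dachsous ligand of FAT4, rose. It was at 76.4, 72.6 and 78.3 CPM in Control and 114.5, 109.9 and 117.4 CPM in CAMKV-KD. The groups were far apart for their spread, with a CAMKV-KD mean 1.50 times the Control mean (log2 0.59 ± 0.047 SE, adjusted p = 0.00072, edgeR). FAT2 was at 2.48, 1.29 and 2.20 CPM in Control and 0.727, 0.484 and 0.713 CPM in CAMKV-KD. Each CAMKV-KD library was below each Control library (log2 −1.62 ± 0.33 SE, adjusted p = 0.0143, edgeR).

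The other FAT genes were not called, and their libraries differed widely within groups. FAT1, a regulator of cell contacts and growth, was at 65.6, 81.3 and 42.6 CPM in Control and 47.1, 16.1 and 12.1 CPM in CAMKV-KD. CAMKV-KD 1 lay within the Control range and the other CAMKV-KD libraries far below it (log2 −1.33 ± 0.59 SE, adjusted p = 0.138, edgeR). Without CAMKV-KD 1 the value was −2.16 and FAT1 was called (adjusted p = 0.0154). That was the only 1 of the 6 fits without a library to call FAT1 (highest adjusted p 0.291, edgeR). FAT3, a cadherin of neurons and retina, was at 2.15, 0.918 and 0.224 CPM in Control and 14.1, 13.1 and 0.0446 CPM in CAMKV-KD. CAMKV-KD 3 held 1 count where the other CAMKV-KD libraries held 348 and 270, and the difference did not pass (log2 3.03 ± 1.62 SE, adjusted p = 0.207, edgeR). Without CAMKV-KD 3 it was 3.61 (adjusted p = 0.0424), again the only 1 of the 6 such fits to call FAT3 (highest adjusted p 0.370, edgeR). With all libraries limma-voom gave 1.53 (adjusted p = 0.713). FAT4, the receptor of DCHS1, was at 5.08, 2.89 and 0.987 CPM in Control and 0.808, 0.775 and 7.40 CPM in CAMKV-KD, with CAMKV-KD 3 the highest library.

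No CELSR gene was called among the 3 tested, and none had an unadjusted p below 0.05. DESeq2 called neither CELSR1 nor CELSR3 and gave no adjusted p for CELSR2. CELSR3, which guides axon tracts in mouse, was at 5.66, 6.75 and 6.91 CPM in Control and 5.45, 6.05 and 5.66 CPM in CAMKV-KD. The groups overlapped slightly (log2 −0.17 ± 0.12 SE, adjusted p = 0.339, edgeR). CELSR2 was at 0.867, 7.34 and 1.53 CPM in Control and 19.8, 0.823 and 1.25 CPM in CAMKV-KD. Only CAMKV-KD 1 and Control 2 were high (log2 1.18 ± 1.47 SE, adjusted p = 0.584, edgeR), and without CAMKV-KD 1 the sign turned, to −1.64. CELSR1 was at 1.01 ± 0.384 CPM in Control and 1.47 ± 0.356 CPM in CAMKV-KD (SD, n = 3) and did not pass (adjusted p = 0.289, edgeR).

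The spread within groups set 5 members apart. By edgeR's gene-wise biological coefficient of variation, FAT3 (1.25), CELSR2 (1.12) and FAT4 (0.881) were above 99.5%, 99.2% and 98.0% of tested genes in rank order. PCDH17 (0.497) and FAT1 (0.490) stood at 91.9% and 91.6%. At the other end CDH11 (0.0925) stood at 5.67%, and PCDH7, DCHS1 and PCDH9 were all at or below 11.5%. The library that departs is not the same for each gene: CAMKV-KD 1 was the high one of its group for FAT1 and CELSR2 and the low one for PCDH17, while CAMKV-KD 3 was high for FAT4 and low for FAT3.

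**Figure D4:**
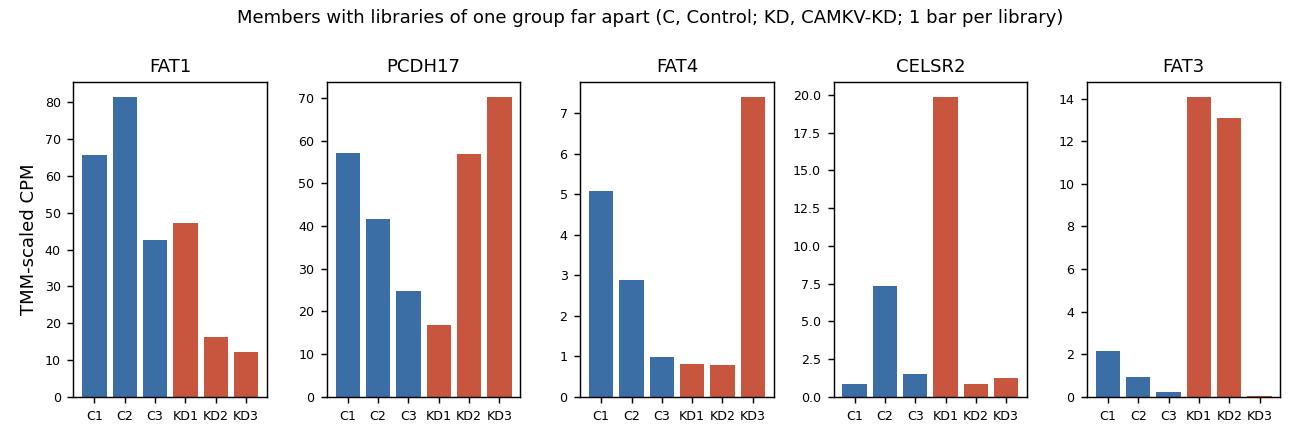
TMM-scaled CPM of FAT1, PCDH17, FAT4, CELSR2 and FAT3, 1 bar per library, with axes that start at 0 and differ between panels. In each panel 1 CAMKV-KD library departs from the other CAMKV-KD libraries, as for FAT3 with 14.1 and 13.1 CPM against 0.0446 CPM.

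Several members neighbour each other, and some neighbours moved in opposite directions. CDH18 (chr5:19472951-20575873) and CDH12 (chr5:21750673-22853622), both on the minus strand of chromosome 5 on GRCh38 in GENCODE 29, are 1.17 Mb apart. CDH18 fell by 1.20 on the log2 scale and CDH12 rose by 3.69. CDH10 and CDH9, the next members along the same chromosome, had no count in any library. On chromosome 4, PCDH10 (chr4:133149315-133208606) fell by 0.92, and PCDH18 (chr4:137518918-137532494), 4.31 Mb away, rose by 0.38. CDH20 and CDH7, 4.19 Mb apart on chromosome 18, both fell, and CDH2 on the same chromosome was not called. On chromosome 13, PCDH8 and PCDH20 fell, while PCDH17, which lies between them, and PCDH9 were not called. The 95% interval of PCDH17 (log2 −1.26 to 1.69) is wide enough to hold the falls of PCDH8 and PCDH20. That of PCDH9 (−0.066 to 0.16) is narrow. Of 8 members on chromosome 16, 4 were tested, of which CDH11 rose and CDH15 fell.

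The intracellular partners of classical cadherins moved both ways, as did all tested genes, of which 17.3% were called higher and 19.0% lower. Of 19 tested genes for catenins and adherens junction adaptors, 5 rose and 3 fell (median log2 0.096). PIP5K1C, a lipid kinase that aids cadherin trafficking, rose by 0.33, ACTN1, an actin crosslinker, by 0.24, AJUBA, a LIM protein of junctions, by 0.60 and IQGAP1, a scaffold, by 0.19. LIMA1, an actin-binding protein, fell by 0.78, CTNNAL1, an alpha-catenin relative, by 0.36 and CTNNA2, the neural alpha-catenin, by 0.63. The CTNNA2 call was lost on leaving out Control 2 or 3 or CAMKV-KD 1 or 3 (highest adjusted p 0.0899). CTNNB1 (beta-catenin), named after its values were seen, was at 499.0 ± 9.80 CPM in Control and 483.9 ± 8.54 CPM in CAMKV-KD (SD, n = 3; log2 −0.044 ± 0.027 SE, adjusted p = 0.261, edgeR). CTNND1 (p120-catenin), named in the same way, was at 233.2 ± 49.9 CPM in Control and 332.9 ± 16.5 CPM in CAMKV-KD. Its groups were apart but it did not pass (log2 0.51 ± 0.17 SE, adjusted p = 0.0642, edgeR). CTNNA1, an alpha-catenin also named so, had a log2 value of −0.036 (adjusted p = 0.372, edgeR).

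Repressors of cadherin genes moved both ways, with 1 of 10 tested members rising and 3 falling (median −0.39). Over all tested genes 17.3% were called higher and 19.0% lower. SNAI2 (SLUG), a neural crest factor, rose from 39.4 ± 1.94 to 74.1 ± 4.15 CPM (SD, n = 3; log2 0.91 ± 0.065 SE, adjusted p = 0.000545, edgeR). SNAI1 fell by 0.55, ZEB1 by 0.55 and TWIST1 by 1.80. Groups were apart for 4 of the list upward and 4 downward, where 52.8% of all tested genes were apart. ZEB2 and TCF4, named after their values were seen, were apart but not called. ZEB2 was at 90.5 ± 36.1 CPM in Control and 204.5 ± 60.5 CPM in CAMKV-KD (SD, n = 3, log2 1.18, adjusted p = 0.0535, edgeR). TCF4 was at 218.5 ± 7.05 CPM in Control and 114.7 ± 43.5 CPM in CAMKV-KD (log2 −0.93, adjusted p = 0.0548, edgeR). The TWIST1 call was lost on leaving out Control 1 or 2 or CAMKV-KD 1 or 2 (highest adjusted p 0.0734). Among 14 tested proteases that cut or mature cadherins, 4 rose and 3 fell (median 0.040), where 36.3% of all tested genes were called. MMP2 rose by 0.37, ADAM10, the main sheddase of N-cadherin, by 0.29, MMP14, a membrane-bound metalloproteinase, by 1.02 and ADAM17 by 0.18. ADAM15 fell by 0.69, PSEN2, of gamma-secretase, by 0.66 and ADAM9 by 0.20. The calls of ADAM17 and ADAM9 were each lost in 5 of 6 fits without a library, all but those without Control 1 and Control 3, respectively (adjusted p up to 0.111 and 0.072).

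Partners of the giant cadherins and of delta-2 protocadherins were mostly not called, which also holds for all tested genes, of which 36.3% were called. Of 16 tested planar cell polarity partners of CELSR proteins 3 fell and none rose (median 0.13, positive although the called members fell). PRICKLE2 fell by 1.54, PTK7 by 0.19 and DVL1 by 0.50, and the DVL1 call was lost without Control 1, Control 2, Control 3 or CAMKV-KD 1 (adjusted p up to 0.0748). Of 17 tested genes of the FAT, Dachsous and Hippo pathway 1 rose and 3 fell (median 0.035). TEAD2, a transcription factor at the end of the pathway, was at 0.72, LIX1L fell by 0.82, WWC1 (KIBRA) was at −1.04 and STK4, a Hippo kinase, at −0.31. Of these, only the LIX1L call stood in all 6 fits without a library, and adjusted p values reached 0.105 for TEAD2, 0.0745 for WWC1 and 0.0935 for STK4. TEAD2 kept its call only without Control 1, WWC1 only without CAMKV-KD 1 or CAMKV-KD 3, and STK4 only without CAMKV-KD 1 or CAMKV-KD 2. Of 13 WAVE complex genes and delta-protocadherin partners, all tested, PPP1CA, a phosphatase subunit, rose by 0.31, while BRK1, the smallest WAVE subunit, fell by 0.43 and RAC1, the GTPase that activates the complex, by 0.13 (median −0.13).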

How the data were processed

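Libraries of 3 Control and 3 CAMKV-KD samples were prepared with a SMARTER mRNA-Seq kit, per the labels' protocols. The values the authors deposited are raw counts, whole numbers for each gene and library. FastQC 0.11.2, HISAT2 2.1.0, StringTie 1.3.5 and GRCh38.p13 are named in the submitters' processing notes, and DESeq2 1.28.1 in the design text. How StringTie output became whole counts, the annotation release and the strand setting are each not given in the sources used here, so reads of overlapping or antisense genes cannot be told apart. Of the 42 members, 26 have a StringTie merged-locus identifier, and 15 have exons that overlap another GENCODE 29 gene.

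Counts were tested in R 4.3.3 with edgeR 4.0.16 (filterByExpr, TMM, glmQLFit, glmQLFTest, group as the only term) on 13366 genes, with Benjamini-Hochberg adjustment over all of them and calls at adjusted p below 0.05. Each SE was taken as |log2 fold change| over the root of the F statistic, and 95% intervals used edgeR's total degrees of freedom. Where 126 entries shared a symbol, the one with the highest mean carried it. The code was tested on simulated data. Counts of all 6 libraries differed between libraries by more than sampling noise (chi-square per degree of freedom 41.5 to 52.1 within groups and 104.7 to 119.2 between). Replicate numbers did not pair the libraries. Lengths and positions came from GENCODE 29 on GRCh38 by symbol, for all 42 members. DESeq2 1.42.0, limma 3.58.1 (voom), other scalings and filters, a replicate block and fits without each library were alternatives. Every member is named, with full values for called members and for others at 5 CPM or more in either group. Of the lists, up to 4 called genes per direction with the smallest adjusted p are named. The called fibroblast and stromal markers and the neuroblastoma markers that fell are given by count only. Members and lists were chosen with earlier results of these data known.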

Additional observations from a re-analysis of the deposited data

How the results depend on the processing

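Over the alternatives that keep all libraries, the count of members called ranged from 4 (replicate block) to 7 (library totals and DESeq2) higher and from 10 to 13 lower, and without a library from 4 to 5 higher and 9 to 11 lower. All of the 16 called members kept their call and sign with RLE or upper-quartile scaling, limma-voom and DESeq2, 15 with library totals and 14 with the replicate block. Over all genes 4857 were called, 3337 with the replicate block, 5716 with DESeq2 and 3854 to 3980 without a library. CAMKV stayed lower under each setting run. The replicate numbers were not treated as pairs: correlations of same-numbered libraries after removing group means were −0.0097, −0.062 and −0.032. Signs turned for FAT4 (−0.024 with upper-quartile scaling, −0.77 with the replicate block, −0.56 with limma-voom, −0.022 without Control 2, −0.41 without Control 3 and, over all fits without a library, −1.91 without CAMKV-KD 3 to 0.63), for PCDH17 (−0.045 without Control 3 and −0.17 without CAMKV-KD 3, up to 0.62), for PCDH12 (−0.092 without Control 1 and −0.012 without CAMKV-KD 2, up to 0.63) and for CELSR2 (−1.64 without CAMKV-KD 1, up to 2.61), none of them called. The cause was not tested. CDH5 rested on 8 to 18 counts a library and CDH20 on 10 to 28.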

Other observations

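Cadherin superfamily genes outside the numbered families were mostly low or not called. Of 19 in the table, 10 were tested, 1 fell and none rose, where 36.3% of all tested genes were called. CLSTN3, a calsyntenin of synapses, fell from 33.9 ± 1.44 to 14 ± 0.333 CPM (SD, n = 3; log2 −1.28 ± 0.064 SE, adjusted p = 0.000216, edgeR). CLSTN1 was at 315.0 ± 1.42 CPM in Control and 246.6 ± 38.0 CPM in CAMKV-KD (SD, n = 3) and did not pass (adjusted p = 0.0671, edgeR). The desmogleins DSG1, DSG2 and DSG4 had no count. DSC2, a desmocollin, was at 19.6 ± 6.87 CPM in Control and 36.9 ± 13.1 CPM in CAMKV-KD (SD, n = 3; log2 0.91 ± 0.39 SE, adjusted p = 0.129, edgeR). DCHS2, a second Dachsous gene, had 27, 10 and 10 counts in Control and none in CAMKV-KD, and the low-count filter removed it. Of 4 tested desmosome plaque genes PKP2 (plakophilin 2) fell by 0.54 on the log2 scale, and DSP (desmoplakin) had no count. CLSTN1, DSC2, DCHS2 and the genes with no count were named after their values were seen.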
